A study of Rattus norvegicus with 12 samples.

Results

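How far the gene expression difference that goes with a Pkhd1 mutation in rat kidney depends on the genetic background was measured here as an interaction. For each gene it is the difference PCK minus SD less the difference FHH.Pkhd1 minus FHH, on the log2 scale. Every array of the series enters it, 12 of 12, and 10895 genes were tested. A positive interaction says that the step from SD to PCK went further up, or less far down, than the step from FHH to FHH.Pkhd1.

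SD is the outbred Sprague Dawley stock, with no Pkhd1 mutation named in the labels. PCK is a rat strain derived from that stock which carries mutated Pkhd1 and develops cystic kidneys and liver. FHH, the Fawn Hooded Hypertensive rat, is inbred and prone to glomerular disease. FHH.Pkhd1 is a congenic strain in which an interval of chromosome 9 taken from PCK was bred onto FHH. All animals were untreated, as far as the labels say, and 30 days old. From 6 animals of each strain both kidneys were taken, and their RNA was combined into 1 pool per strain and measured on 3 arrays. The sources used here do not give the sex of the animals. Standard errors and p-values therefore set differences between pools against the spread between arrays of a pool, not against the spread between animals. PCK and SD are separate stocks, so what the mutation does and what other alleles do cannot be told apart in PCK minus SD. The congenic interval likewise carries neighbours of Pkhd1. No probe set was named Pkhd1 in the annotation used, so the mutated gene itself is not reported.

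Pkhd1 encodes fibrocystin, a large membrane protein of the primary cilium and apical membrane of collecting duct and bile duct cells, and its loss causes autosomal recessive polycystic kidney disease. Cysts in this disease arise mainly from collecting ducts. Injured tubule cells next to cysts are known to switch on genes such as Havcr1, Clu and Lcn2. Inbred strains that carry the same cystic mutation can differ widely in cyst burden, and crossing a mutation onto another background is the classical way to look for such modifiers. The series title contrasts rats susceptible and resistant to polycystic kidney disease.

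Values are log2 signals. Arrays of a pool correlated at 0.9973 to 0.9985 and arrays of different pools at 0.9862 to 0.996 over all probe sets. Kidney identity was plain on every array: all 28 proximal tubule markers on the array passed the detection level of 5.74, and their summed signal was 17.13 to 17.20. Pool means of Eif2s3y, a gene of the Y chromosome, spanned 9.51 to 9.85. Spike-in RNA that is added before labelling differed between pools: its mean signal was 10.81 in PCK, 10.47 in SD, 11.11 in FHH and 10.01 in FHH.Pkhd1, an interaction of 1.45. The 3' minus 5' difference of the actin controls, a sign of RNA integrity, had an interaction of 0.42. For the spike-ins, each of the Pkhd1 differences had an exact permutation p of 0.1 (two-sided, 3 arrays against 3), the smallest p this design allows. The part of labelling and RNA integrity in the results below was not tested.

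The Pkhd1 difference was not the same on the SD-derived and FHH backgrounds for 547 of the 10895 genes (5.02%), called at a limma adjusted p under 0.05 and an interaction of at least 1.5-fold. The interaction was positive for 316 of them (2.9% of genes tested) and negative for 231 (2.12%). Over all genes its median was -0.01 and its median size 0.13, against a median size of 0.81 among called genes. At least a 4-fold interaction was reached by 27 genes, 17 positive and 10 negative. The median standard error (SE) was 0.07. Whatever the fold, 3345 genes had an adjusted p under 0.05, so the fold limit sets the count. Bbs1 at -0.59 and Cd55 at 0.59 lay just inside the limit, and Penk at 0.58 and Rfx8 at -0.58 just outside.

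Most genes that PCK and SD differed in behaved otherwise in the FHH pair. Of 339 genes called in PCK minus SD (3.11%), 267 were also called in the interaction and 72 were not. Of 138 called in FHH.Pkhd1 minus FHH (1.27%), 110 were called in the interaction and 28 were not. Among the 547 interaction genes, 244 were called in PCK minus SD alone, 87 in FHH.Pkhd1 minus FHH alone, 14 in both with opposite directions, and 9 in both with the same direction but unequal size. For the other 193 neither difference was called. Where neither step reaches the fold limit, an interaction that does requires steps of opposite sign, as all 193 had. The largest of these interactions was 1.09, for Lcn2.

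**Figure D1:**
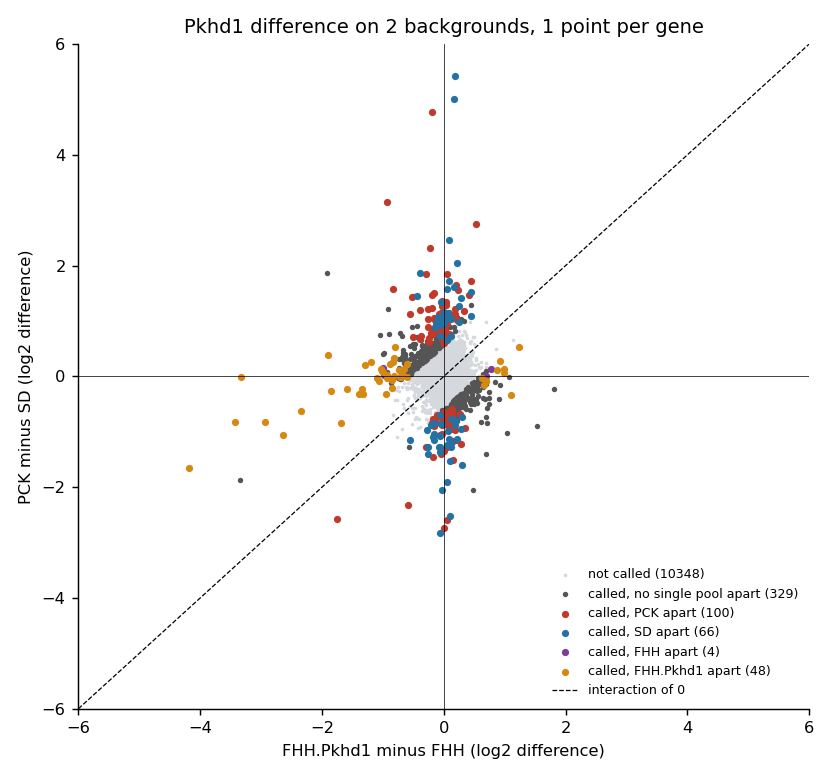
Each point is a gene, with FHH.Pkhd1 minus FHH on the x axis and PCK minus SD on the y axis, both as log2 differences between means of 3 arrays, and colour gives the pool that stands apart. Genes called in the interaction lie away from the line of equal differences, and the 14 called in opposite directions lie in the upper left and lower right.

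The 4 pool means do not allow a test of which pool an interaction comes from, so the 547 genes were sorted as a description. A pool was said to stand apart when its mean was the highest or lowest, lay at least 1.5-fold from the next pool, and did so by more than the whole range of the other 3. That held for 218 genes (39.9% of those called). PCK stood apart for 100 genes (54 high, 46 low), SD for 66 (33 high, 33 low), FHH.Pkhd1 for 48 (10 high, 38 low) and FHH for 4 (2 high, 2 low). In 22 genes the pools fell 2 against 2, and 307 (56.1%) were graded, with no such gap. For 174 of the 218, the other 3 pools lay within 1.5-fold of each other. The rule all but fixes that the arrays of the pool do not overlap with others, so no test was added.

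**Figure D2:**
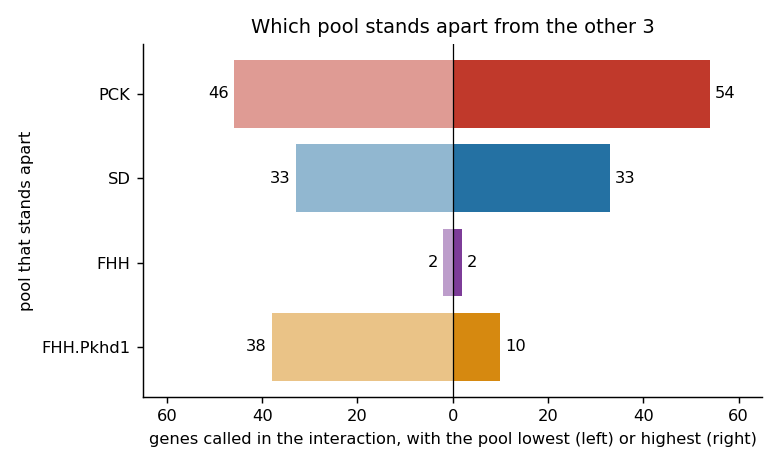
Bars count the genes called in the interaction for which 1 pool stood apart, split by whether that pool was high or low. PCK has the most genes at 100, SD has 66, FHH.Pkhd1 48 with 38 of them low, and FHH 4.

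The genes high in PCK alone held several that are known from injured tubules and from the plasma protein response. Havcr1, or kidney injury molecule 1, a receptor that injured proximal tubule cells put on their surface, read 9.29, 9.14 and 9.33 on the PCK arrays. It read 6.08, 6.07 and 6.14 in SD, 6.87, 6.96 and 7.17 in FHH, and 6.20, 6.11 and 5.92 in FHH.Pkhd1. All PCK arrays lay above all others, and the FHH arrays lay above those of FHH.Pkhd1. PCK minus SD was thus 3.15 and FHH.Pkhd1 minus FHH -0.93, called in opposite directions, and the interaction was 4.08 ± 0.12 (SE), a 16.9-fold ratio of ratios (limma adjusted p = 3.39e-10).

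Serpina3n, a secreted serine protease inhibitor of the acute phase response, read 8.94, 8.99 and 9.06 in PCK. The other 9 arrays ran from 4.18 to 4.64, below the detection level, so no fold is given. The interaction was 4.96 ± 0.11 (limma adjusted p = 1.74e-11). Clu, a secreted chaperone, read 11.67, 11.56 and 11.62 in PCK, 10.09, 10.04 and 10.08 in SD, 9.43, 9.34 and 9.33 in FHH, and 9.68, 9.52 and 9.58 in FHH.Pkhd1. Its pools did not overlap and PCK lay highest, with an interaction of 1.33 ± 0.07. Slpi, an epithelial inhibitor of neutrophil proteases, stood at a mean of 8.32 in PCK against 6.75 in SD, 7.24 in FHH and 6.41 in FHH.Pkhd1, an interaction of 2.40 ± 0.10.

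Other genes high in PCK alone had smaller interactions. They were Serping1, the C1 inhibitor (1.30 ± 0.08), Cfi, a complement protease (1.16 ± 0.10), and Gpnmb, a glycoprotein of macrophages and stressed epithelium (1.30 ± 0.09). Ace, which makes angiotensin II, came in at 1.25 ± 0.15 and Tgfbi, a matrix protein induced by TGF-beta, at 1.06 ± 0.06. Genes of extracellular matrix and fibrosis as a list leaned the other way. Of 41 tested, 3 had positive and 6 had negative calls. In this list 11 values were positive and 30 negative, with a median of -0.20, against -0.01 for all genes. Axin2, a target and feedback inhibitor of Wnt signalling, had 0.86 ± 0.15, with PCK arrays at 5.62 to 6.02. For Axin2, Ace and Cfi all pool means other than that of PCK lay below the detection level. Of the clock activators, Npas2 had 0.91 ± 0.13 and Bmal1 0.67 ± 0.14. Their known repressor Bhlhe40 was low in PCK alone, at -0.78 ± 0.07. The sources used here do not give the time of day at which kidneys were taken, and its part was not tested.

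Among the genes low in PCK alone, Ephx2, the soluble hydrolase that degrades epoxides of arachidonic acid, read 7.09, 7.23 and 7.09 in PCK. It read 9.77, 9.73 and 9.71 in SD, 10.94, 10.91 and 10.90 in FHH, and 10.97, 10.97 and 10.95 in FHH.Pkhd1. The PCK arrays lay far below all others, the SD arrays lay between, and FHH and FHH.Pkhd1 differed by 0.05. The interaction was -2.65 ± 0.06 (limma adjusted p = 1.45e-11). Enpp6, a choline phosphodiesterase, read 5.99, 6.49 and 6.18 in PCK and 8.46 to 8.98 on the other 9 arrays, with an interaction of -2.74 ± 0.13 (limma adjusted p = 2.23e-08). Of the enzymes of cholesterol synthesis, Lss, which closes the sterol rings, was low in PCK alone at -0.92 ± 0.05. Its other probe set gave -0.27, not called. Sqle, the epoxidase before Lss, was low in PCK alone too, at -0.66 ± 0.09. So were Cd74, the invariant chain of MHC class II (-0.84 ± 0.05), its partner chain RT1-Da (-0.88 ± 0.06), Calb1, a calcium-binding protein of the distal tubule (-0.81 ± 0.04), and the matricellular Ccn1 (-1.50 ± 0.15).

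SD stood apart for 66 genes, and for 58 of them PCK, FHH and FHH.Pkhd1 lay within 1.5-fold of each other. Fam111a, a protease that takes part in DNA replication, read 6.87, 6.90 and 6.87 in SD. It read 11.85, 11.92 and 11.88 in PCK, 10.67, 10.64 and 10.62 in FHH, and 10.82, 10.80 and 10.84 in FHH.Pkhd1. SD was lowest by 3.76 and the other pools were within 1.24 of each other, and the interaction was 4.83 ± 0.04 (limma adjusted p = 2.88e-15). Akr1b8, an aldo-keto reductase, read 6.62, 6.18 and 6.34 in SD and 8.24 to 8.91 on the other arrays, an interaction of 2.39 ± 0.12. Also low in SD alone were Col17a1, a hemidesmosome collagen (1.83 ± 0.12, with SD below the detection level), and Hrg, a plasma glycoprotein (1.44 ± 0.09). So were the interferon-induced Ifi44l (1.10 ± 0.07) and Lpl, which frees fatty acids from lipoproteins (1.03 ± 0.05).

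The other direction was as frequent. Gc, the vitamin D binding protein, read 9.43, 9.46 and 9.38 in SD, 6.46, 6.74 and 6.61 in PCK, 6.28, 6.16 and 6.13 in FHH, and 6.05, 6.24 and 6.10 in FHH.Pkhd1. SD was high and the FHH pair overlapped, with an interaction of -2.76 ± 0.10 (limma adjusted p = 2.07e-09). Alox15, an arachidonate lipoxygenase, read 8.28, 8.13 and 8.11 in SD and 6.23 to 6.68 elsewhere, an interaction of -1.91 ± 0.10. High in SD alone were further Klk1c4, a kallikrein (-2.64 ± 0.11), Inmt, a methyltransferase (-1.31 ± 0.06), Idi1, an early enzyme of sterol synthesis (-1.31 ± 0.07), and the transcription factor Creb1 (-1.34 ± 0.14).

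Red cell genes went with SD as well. All 4 tested red cell markers, of 6 on the array, had a called negative interaction, while 5.02% of all genes were called in either direction. Their median was -1.10. They were Ahsp, which stabilises alpha globin, at -1.96 ± 0.10, Alas2, the first enzyme of heme synthesis in red cells, at -1.21 ± 0.10, Hbb, beta globin, at -0.98 ± 0.05, and Slc4a1, the anion exchanger that intercalated cells express too, at -0.61 ± 0.06. For the first 3 SD was high, and for Slc4a1 the pools were graded with FHH.Pkhd1 highest. Ahsp lay below the detection level in PCK. Slc4a1 was not called without PCK replicate 1, SD replicate 1 or FHH.Pkhd1 replicate 3, nor with quantile normalization, at -0.58 in each. The summed red cell signal was 13.60 to 13.61 in SD, 12.84 to 12.87 in PCK, 12.73 to 12.76 in FHH and 12.93 to 13.01 in FHH.Pkhd1. More blood in a pool and more transcript per cell cannot be told apart in these data, and the part of blood in the other SD genes was not tested.

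RT1-Bb, an MHC class II beta chain, had the largest positive interaction, and it turned on the probe set used. Its brighter probe set read 4.27 to 4.48 in SD and 9.68 to 11.07 on the other arrays, an interaction of 5.23 ± 0.11. The other probe set of the gene gave -5.06, and their mean gave 0.09, which was not called. Sc5d, a late enzyme of sterol synthesis that was low in SD alone (1.16 ± 0.11), had other probe sets at 0.45 and -0.67, and the mean of its probe sets gave 0.31, not called. Pdk4, which holds back pyruvate oxidation, was also low in SD alone (0.91 ± 0.07) and was not called at 0.41 with the mean.

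FHH.Pkhd1 stood apart for 48 genes, low in 38 and high in 10. Among the genes it stood apart for were 3 listed aldo-keto reductases, 3 organic anion and cation transporters and 1 gene of fatty acid oxidation. Cyp4a8, an arachidonate omega-hydroxylase, read 7.78, 7.73 and 7.92 in FHH.Pkhd1 and 11.19, 11.14 and 11.09 in FHH. It read 12.33, 12.18 and 12.31 in PCK and 12.25, 12.29 and 12.28 in SD. PCK and SD overlapped, so that the interaction of 3.33 ± 0.08 (limma adjusted p = 2.6e-11) lay in the FHH pair, and its other probe set gave 3.27.

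Slco1a1, an organic anion transporter of the proximal tubule brush border, read 3.92, 3.63 and 3.78 in FHH.Pkhd1, below the detection level. It read 7.97, 7.98 and 7.96 in FHH, 10.19, 10.21 and 10.28 in SD, and 8.54, 8.57 and 8.62 in PCK. It fell in both comparisons, by 1.65 from SD to PCK and by 4.19 from FHH to FHH.Pkhd1, and the interaction of 2.54 ± 0.08 (limma adjusted p = 9.53e-10) measures the excess of the second. Tff3, a trefoil peptide of mucosal repair, did likewise, with 8.80, 8.71 and 8.65 in FHH.Pkhd1, 11.10, 11.03 and 11.05 in FHH, 11.33, 11.29 and 11.30 in PCK, and 11.99, 11.87 and 11.92 in SD. Its pools did not overlap, and its interaction was 1.71 ± 0.06 (limma adjusted p = 2.38e-09).

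The aldo-keto reductases Akr1c1, AKR1C3l1 and Akr1c13, which reduce steroids and prostaglandins, are neighbours on chromosome 17 with no other tested gene between them. Their FHH.Pkhd1 means were 5.22, 8.60 and 6.23 against FHH means of 7.86, 10.50 and 9.16. Their interactions were 1.58 ± 0.06, 2.28 ± 0.07 and 2.11 ± 0.08, with Akr1c1 under the detection level in FHH.Pkhd1. The 3 genes are close paralogs, so their separate values are uncertain, and cross-hybridisation between them was not tested. Dhrs7l1, of the short-chain dehydrogenase family, had 2.61 ± 0.11 with its FHH.Pkhd1 mean also under that level, and Abcc2, an efflux pump for conjugates, 1.34 ± 0.13. Odc1, which starts polyamine synthesis, had 0.85 ± 0.06. Several of these genes are known to be sex-dependent in rodent kidney. Beside them, the Y-linked Eif2s3y had an interaction of 0.25 ± 0.11 (limma adjusted p = 0.103) and the Y-linked Uty 0.01 ± 0.09 (limma adjusted p = 0.965). The part of sex hormones was not tested.

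High in FHH.Pkhd1 alone was Pbx2, a homeodomain cofactor, at 8.75, 8.72 and 8.70 against 7.75 to 8.01 on the other 9 arrays, an interaction of -0.77 ± 0.07. S100a9, a calcium-binding protein of neutrophils, reached 5.71 to 5.93 in FHH.Pkhd1 and stayed at or below 5.03 elsewhere, with -0.71 ± 0.12 and the other pool means below the detection level. Only 2 neutrophil markers were tested, and the other, Lcn2, went the opposite way: it was lowest in FHH.Pkhd1, with an interaction of 1.09. Several of the other genes high in FHH.Pkhd1 depended on the probe set: with the mean of a gene's probe sets the interaction of Dnajc7, a co-chaperone, went from -1.43 to -0.51, that of Retreg3, an ER-phagy receptor, from -0.87 to -0.41, and that of Rora, a nuclear receptor of the clock, from -0.77 to -0.44, none of them called then. Among the low genes the same ended the calls of Trpv1, a cation channel (0.84 to 0.52), and of Igtp, an interferon-induced GTPase (0.78 to 0.20). Prrc2a, an RNA-binding protein high in FHH.Pkhd1 (-0.64 ± 0.11), was not called without FHH.Pkhd1 replicate 3 (-0.58) or PCK replicate 2 (-0.54).

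FHH stood apart for 4 genes only. Tmem14a, a mitochondrial membrane protein whose gene is on chromosome 9, read 9.35, 9.34 and 9.29 in FHH, 8.33, 8.41 and 8.31 in FHH.Pkhd1, 8.03, 8.12 and 8.04 in PCK, and 8.08, 8.03 and 7.98 in SD. The FHH arrays lay above all others, and the interaction was 1.01 ± 0.06. Nme7, a ciliary kinase, was also high in FHH (1.16 ± 0.09), whereas the conjugating enzyme Gstm2 (-0.69 ± 0.13) and the zinc finger gene Zfp597 (-0.64 ± 0.18) were low. Zfp597 was not called without PCK replicate 1 (-0.57), FHH replicate 3 (-0.51) or FHH.Pkhd1 replicate 3 (-0.53). Its FHH mean lay below the detection level.

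**Figure D3:**
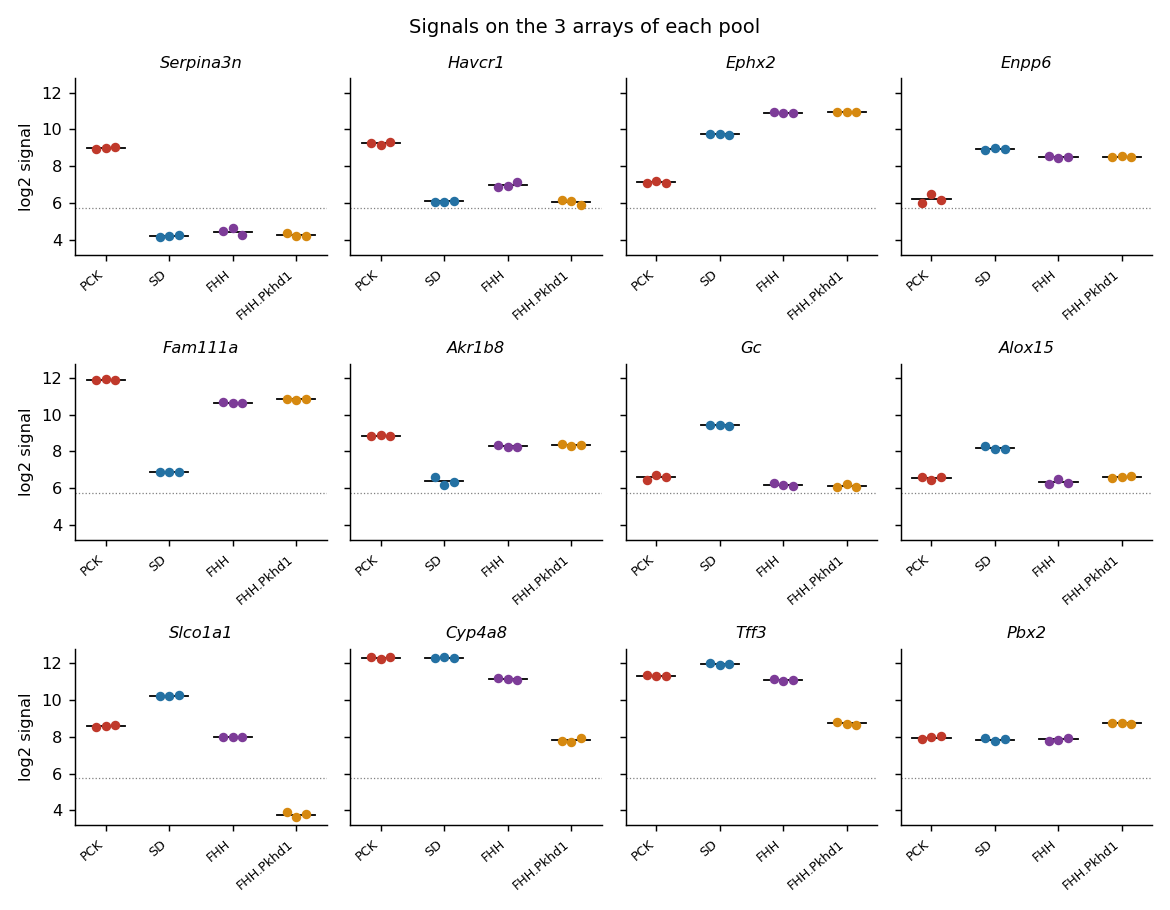
Points are log2 signals of single arrays and bars are means of the 3 arrays of a pool, with the detection level of 5.74 dotted, for genes in which a different pool stands apart. Havcr1 and Serpina3n are high and Ephx2 low in PCK, Fam111a is low and Gc high in SD, and Cyp4a8, Slco1a1 and Tff3 are low in FHH.Pkhd1.

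In 22 genes the pools fell 2 against 2, in 21 of them by background. Steroid-making genes were part of it: Hsd3b1 had means of 5.80 in both PCK and SD, 8.22 in FHH and 9.29 in FHH.Pkhd1, an interaction of -1.08 ± 0.09. Cyp11a1, the side-chain cleavage enzyme, had -1.08 ± 0.14 and Star, which carries cholesterol to it, -0.93 ± 0.11. These and Akr1b7 (-2.04 ± 0.07) are adrenal cortex markers. Of 7 such markers tested 4 were called (57.1%, against 5.02% of all genes), all negative, and the median of the 7 was -0.93. Akr1b7 passed the detection level in FHH.Pkhd1 alone (7.54, against 3.85 in PCK, 4.08 in SD and 5.73 in FHH). Star lay under that level in PCK and SD and Cyp11a1 in PCK, so their log2 values rest in part on pools that were not detected. The summed adrenal signal was 10.86 to 10.92 in PCK, at least 10.95 in SD, 11.35 to 11.38 in FHH and 11.77 to 11.84 in FHH.Pkhd1. The part of adrenal tissue in these values was not tested, and more such cells and more transcript per cell cannot be told apart.

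The FHH pair was also high in Scd and Thrsp, listed with fatty acid synthesis, and in the adipocyte marker Fabp4. Scd, the stearoyl-CoA desaturase, read 5.81, 5.37 and 6.13 in PCK, 6.66, 6.75 and 6.57 in SD, 8.19, 8.14 and 8.27 in FHH, and 9.70, 9.51 and 9.98 in FHH.Pkhd1. The pools did not overlap, and the step to the mutant pool went down on one background and up on the other, with an interaction of -2.42 ± 0.22 (limma adjusted p = 5.67e-06). Thrsp, a regulator of lipogenesis, had -1.24 ± 0.11 and Fabp4, the adipocyte fatty acid carrier, -0.64 ± 0.08, not called at -0.58 without PCK replicate 1. The summed adipocyte marker signal was 12.05 to 12.08 in PCK, 11.84 to 11.86 in SD, 12.61 to 12.71 in FHH and 12.84 to 12.86 in FHH.Pkhd1. Of 14 tested adipocyte markers 1 had a positive call (Lpl, low in SD alone) and 2 had negative calls (21.4% called, against 5.02% of all genes). In this list 8 values were positive and 6 negative, with a median of 0.07. The part of fat tissue was not tested. PCK and SD were the high pair for Enpp1, a pyrophosphate-making ectoenzyme (1.15 ± 0.08), Hao1, a glycolate oxidase (1.08 ± 0.15), and Rarres1, a retinoid-responsive membrane protein (1.40 ± 0.10). In Cyp26b1, which degrades retinoic acid, SD and FHH.Pkhd1 were the high pair (-2.09 ± 0.16), and its other probe set gave -0.40.

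Both Pkhd1 differences were called with opposite signs in 14 genes. Besides Havcr1, Slpi, Scd, Cyp26b1 and Rarres1, 9 were graded. Slc7a12, an amino acid transporter of the proximal tubule, read 11.35, 11.33 and 11.29 in PCK, 9.43, 9.46 and 9.49 in SD, 8.63, 8.57 and 8.74 in FHH, and 6.75, 6.73 and 6.72 in FHH.Pkhd1. It rose by 1.86 from SD to PCK and fell by 1.91 from FHH to FHH.Pkhd1, so that the pools formed a ladder without overlap, and the interaction was 3.78 ± 0.06 (limma adjusted p = 8.08e-13). The same order of signs was seen in Azgp1, a lipid-mobilising glycoprotein (2.12 ± 0.13), Eci2, an isomerase of fatty acid oxidation (1.80 ± 0.07), Vwf, the endothelial clotting factor (1.66 ± 0.08), and Slc22a7, an organic anion transporter (1.51 ± 0.07). The opposite order, lower in PCK than SD and higher in FHH.Pkhd1 than FHH, was that of Fcgr3a, an Fc receptor of myeloid cells (-1.56 ± 0.14), Car3, a carbonic anhydrase abundant in fat and muscle (-1.43 ± 0.09), and the transcription factor Pou2f1. Acadsb, an acyl-CoA dehydrogenase (-2.05 ± 0.26), had the same signs, but its means of 4.48 in PCK, 5.50 in SD and 5.20 in FHH lay below the detection level and FHH.Pkhd1 alone was above it, at 6.23, so its step from SD to PCK compares pools that were not detected. Of 14 tested macrophage markers Fcgr3a and Mrc1 were called (14.3%, against 5.02% of all genes), and Mrc1 went the other way (0.74 ± 0.08). The macrophage median was -0.05, with 7 values positive and 7 negative. Vwf was the only call among 14 tested endothelial markers (7.14%). Their median was -0.05, with 6 values positive and 8 negative.

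**Figure D4:**
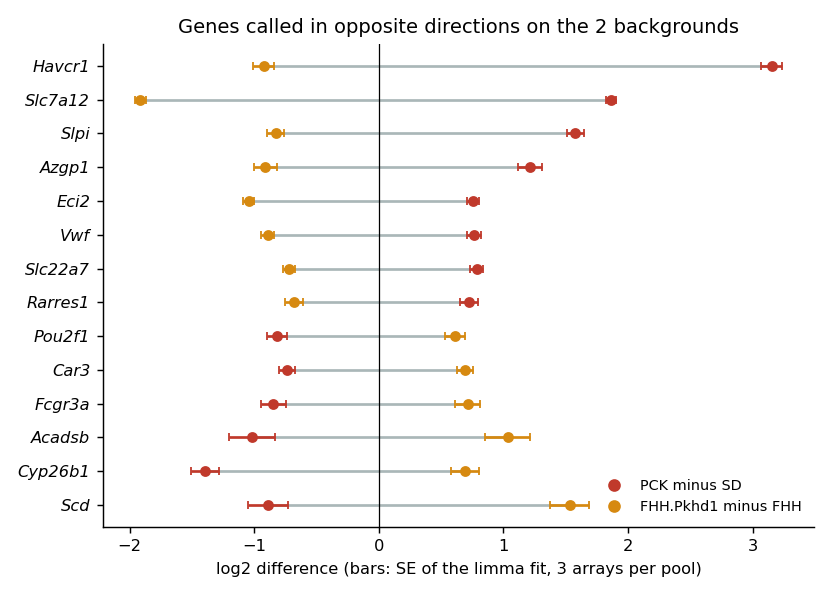
For the 14 genes called in both Pkhd1 differences with opposite directions, points give FHH.Pkhd1 minus FHH, and PCK minus SD, on the log2 scale with their SE. The 2 points of each gene lie on either side of 0, from Scd at the negative end of the interaction to Havcr1 at the positive end.

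Graded genes with an interaction and only small steps made up much of the rest. Lcn2, a siderophore-binding protein that injured tubules secrete, read 8.05, 8.14 and 8.07 in PCK, 7.61, 7.52 and 7.51 in SD, 7.64, 7.55 and 7.52 in FHH, and 6.99, 7.03 and 7.05 in FHH.Pkhd1. SD and FHH overlapped, PCK lay 0.54 above SD, FHH.Pkhd1 lay 0.55 below FHH, and neither step was called, while the interaction was 1.09 ± 0.06 (limma adjusted p = 7.82e-08). Jun, a subunit of the AP-1 factor, had -1.32 ± 0.12, with a called FHH.Pkhd1 minus FHH of 0.91. Alb, albumin, had means of 5.83, 7.88, 9.58 and 10.05 in PCK, SD, FHH and FHH.Pkhd1 and an interaction of -2.53 ± 0.08. Ugt2b35, a glucuronosyltransferase, fell in both comparisons, by 1.86 from SD to PCK and by 3.34 from FHH to FHH.Pkhd1, an interaction of 1.48 ± 0.14. Its FHH.Pkhd1 mean of 3.78 was below the detection level, so the second fall and the interaction are differences against a pool that was not detected.

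Some genes moved in the same direction on both backgrounds. PCK minus SD was called for 339 genes (3.11%) and FHH.Pkhd1 minus FHH for 138 (1.27%). In 15 genes both Pkhd1 differences were called in the same direction. The overlap of unrelated calls was not computed, so this count has no baseline here. Of the 15, 9 still had a called interaction. The other 6 missed the call, which does not show that their steps were equal. Bhlhe41, a clock repressor, fell by 0.70 from SD to PCK and by 0.84 from FHH to FHH.Pkhd1, with an interaction of 0.14 (95% interval -0.13 to 0.41). Tnfrsf11b, the decoy receptor osteoprotegerin, fell by 0.66 and 0.59, with an interaction of -0.06 (-0.27 to 0.14). Fgb, the fibrinogen beta chain, rose by 0.99 and 0.69, with 0.30 (0.11 to 0.49). P2ry1, an ADP receptor, had -0.32 (-0.66 to 0.03), Lsm14b, an RNA-binding protein, -0.48 (-0.78 to -0.19), and the histone gene H4f3 -0.28 (-0.50 to -0.06). P2ry1 was above the detection level in FHH alone and Lsm14b in FHH.Pkhd1 alone, so their steps set pools below that level against each other and carry no weight as steps alike. For Fgb, Lsm14b and H4f3 the interval leaves out 0.

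The interaction was then read over lists of genes with a known role. The lists together held 591 tested genes, of which 122 were called (20.6%, against 5.02% of all genes). They were chosen with results of these data known, so this share is no independent evidence. Of 26 tubule injury and repair genes on the array 23 passed the filter, and 7 were called, all positive, with a median interaction of 0.39 against -0.01 for all genes. PCK stood apart for 4 of the 7, FHH.Pkhd1 was low for Tff3 and Gdf15, and Lcn2 was graded. The list median of PCK minus SD was 0.44, whereas that of the FHH pair was -0.03. The summed signal of the injury list was 14.64 to 14.65 in PCK, 14.28 to 14.34 in SD, 13.98 to 14.06 in FHH and 13.96 to 14.01 in FHH.Pkhd1. Acute-phase and plasma protein genes had 7 positive and 3 negative calls among 16 tested of 23 on the array, with a median of 0.43.

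Cell cycle genes leaned the other way by small steps. Of 31 tested, from 32 on the array, 6 were called (19.4%, against 5.02% of all genes) and all 6 were negative. In 29 of 31 the value was negative, and the median was -0.42, against -0.01 for all genes. In 27 of 31, PCK was below SD while FHH.Pkhd1 was above FHH. The share of all genes with these signs was not counted, so the counts of signs have no baseline here. Cenpf, a kinetochore protein, had means of 6.73 in PCK, 7.47 in SD, 7.13 in FHH and 7.37 in FHH.Pkhd1, an interaction of -0.97. Mcm6, a subunit of the replicative helicase, had -0.82, Cdk1, the mitotic kinase, -0.78, and Mki67, the proliferation marker, -0.73. All 6 were graded. Members of this list are co-expressed, so they are not independent of each other.

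Metabolic lists split by step. The shares called below stand against 5.02% of all genes. Sterol synthesis had 5 negative and 1 positive call among 19 genes (31.6%) and a median of -0.27. Fatty acid synthesis had 3 negative calls (Scd, Thrsp and Fasn) among 18 (16.7%) with a median of -0.16. Fatty acid oxidation had 6 positive calls and 1 negative among 26 (26.9%), but a median of only 0.05. The organic anion and cation transporters had 6 positive calls and no negative among 24 (25.0%), with a median of 0.09. The aldo-keto reductases had 4 positive and 1 negative among 14 (35.7%). In these transporter and reductase lists the calls came from a few large values and the typical member did not differ from the median of all genes by much. The renin-angiotensin and kallikrein list had 2 positive calls (Ace and Agt) and 3 negative ones (Klk1c4, Agtr1b and Klk1) among 11 (45.5%).

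Of 31 cystic disease and cilium genes 3 were called (9.68%, against 5.02% of all genes), each near the limit: Ift140 at 0.60, Bbs1 at -0.59 and Ahi1 at -0.66, with a list median of 0.03. Ift140 was not called without PCK replicate 1 or 3, FHH replicate 1 or FHH.Pkhd1 replicate 2 (0.54 to 0.58). Ahi1 was not called without SD replicate 1, FHH replicate 3 or FHH.Pkhd1 replicate 1 (-0.57 to -0.56) or when its probe sets were averaged (-0.41). Bbs1 was not called without PCK replicate 1, SD replicate 1 or 2, FHH replicate 3, or FHH.Pkhd1 replicate 1 or 3 (-0.57 to -0.51), and it was not called at -0.58 with quantile normalization or median centring. Of 16 principal cell markers, genes of the collecting duct, limma called 0. Of these markers 11 had an unadjusted limma p under 0.05, as had 4527 of all 10895 genes. Aqp2, the vasopressin-regulated water channel, had means of 12.70 in PCK, 12.16 in SD, 12.45 in FHH and 12.74 in FHH.Pkhd1, an interaction of 0.25. Of 8 urothelial markers 4 were called (50%, against 5.02% of all genes), all positive, with a median of 0.43. They were Upk1b at 0.78, Krt14 at 0.61, Upk1a at 0.60 and Upk3a at 0.60. The summed urothelial signal was 11.51 to 11.60 in PCK, 11.53 to 11.56 in SD, 11.62 to 11.66 in FHH and 11.53 to 11.61 in FHH.Pkhd1. The ranges of PCK, SD and FHH.Pkhd1 thus overlapped. Upk1a was not called without PCK replicate 2 or 3, FHH replicate 2 or FHH.Pkhd1 replicate 1 (0.55 to 0.58), Upk3a not without PCK replicate 1 or SD replicate 2 or 3 (0.55 to 0.58), and Krt14 not without PCK replicate 3, SD replicate 2, FHH replicate 2 or 3, or FHH.Pkhd1 replicate 3 (0.51 to 0.57).

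**Figure D5:**
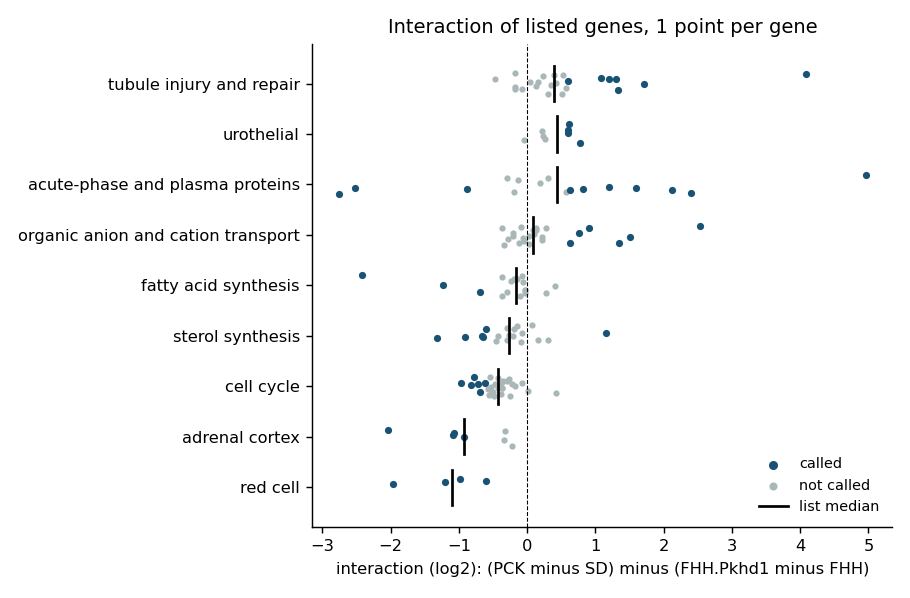
For each gene list, points are the interactions of its tested members on the log2 scale and the mark is the list median. Cell cycle, adrenal cortex and red cell medians lie below 0 and those of the injury, acute-phase and urothelial lists above 0.

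The array holds further probe sets for some of the called genes, which the choice of the brightest did not use. Of 138 such detected probe sets (110 genes), 115 had the same sign of interaction, 54 of them past 1.5-fold, and 4 were past it in the opposite direction. Of the 4, 3 belonged to genes with SD apart. For genes with PCK apart, 17 of 19 had the same sign, but only 7 of the 19 were past 1.5-fold in that sign. With FHH.Pkhd1 apart, 11 of 12 had the same sign and 5 were past 1.5-fold. With SD apart, 13 of 16 had the same sign and 10 were past 1.5-fold.

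Chromosome 9, where Pkhd1 lies, had 27 called of 427 tested genes (6.32%), near the 5.02% of all genes. FHH.Pkhd1 stood apart for 1 of them and PCK for 5, among them Cps1, the first enzyme of the urea cycle, with means of 8.79 in PCK, 6.04 in SD, 4.16 in FHH and 4.69 in FHH.Pkhd1 (2.22 ± 0.18, with the FHH pair not detected), and Npas2. Chromosome 20, which holds the MHC genes, had the highest share, 28 of 327 (8.56%). Some called genes of a class lay side by side: the Akr1c genes, RT1-T24-4 and RT1-T24-3 on chromosome 20 with SD high (-2.02 ± 0.13 for RT1-T24-3), and Urah and Scgb1c1 on chromosome 1 with SD high. RT1-T24-3 was above the detection level in SD alone. Gene order was taken from the GRCr8 assembly.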

How the data were processed

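The authors deposited log2 signals per probe set for 12 arrays. RMA and Partek 6.2 are named in the submitters' processing notes. The sources used here do not say whether the arrays were normalized jointly. Array medians were 6.41 to 6.46. Of 31042 probe sets that are not controls, 20826 carried a single gene symbol, and the brightest was kept for each of 14217 genes. A gene was tested when it reached 5.74 in the mean of at least 1 pool. That level, percentile 40 of the signals, is used here as the detection level though it is not a measured background. That left 10895 genes. Where a pool lay below it, differences are given without a fold.

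The interaction and the pairwise differences were estimated with limma 3.58.1 (R 4.3.3) from a model of the 12 arrays that gives each strain its own mean. P-values carry the Benjamini-Hochberg adjustment across the genes tested. Called means an adjusted p under 0.05 and at least 1.5-fold. Interactions are given ± SE. The pairwise differences share arrays with the interaction and describe it. Control probe sets were compared by exact permutation tests.

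The comparison, the sort and the 37 lists were chosen with earlier results of these data known. Named genes were the largest interactions, the largest gaps of each class, up to 4 called members of each list, genes called in both Pkhd1 differences and called genes of chromosome 9, beside further members of short counts, chosen after their values were seen. On simulated data of 10895 genes the procedure called 2% of genes with a 1.25-fold interaction, 96% at 1.75-fold, 100% at 2-fold and 1 of 10695 unchanged genes. The simulated noise was the spread between arrays of a pool. It held no variation between animals and no labelling shift, so these rates leave those out. Alternatives covered the fold limit, the filter, the probe set kept, the variance model, normalization, the sort, a replicate block and leaving out each array. Having 3 arrays per pool bears only on how precisely each pool was measured. With 1 pool per strain, the spread between animals of a strain stays unmeasured, and further arrays of the same pools would not supply it.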

Additional observations from a re-analysis of the deposited data

Results flagged for a closer look

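The difference between backgrounds passed its own test, and the differences on each background were called with opposite signs, for 14 genes. Their limma interactions were -2.42 for Scd, -2.09 for Cyp26b1, -2.05 for Acadsb, -1.56 for Fcgr3a, -1.43 for Car3 and -1.43 for Pou2f1. For Acadsb PCK, SD and FHH were all below the detection level, as were FHH.Pkhd1 for Azgp1 and FHH for Fcgr3a. On the positive side they were 1.40 for Rarres1, 1.51 for Slc22a7, 1.66 for Vwf, 1.80 for Eci2, 2.12 for Azgp1, 2.40 for Slpi, 3.78 for Slc7a12 and 4.08 for Havcr1. Probe sets that carry no or several gene symbols took no part in the comparison: of 4691 tested, 366 were called in the interaction (7.8%), 187 positive and 179 negative. PCK stood apart for 79 of them, SD for 45, FHH.Pkhd1 for 42 and FHH for 4. The largest value, in a probe set with no symbol, was an interaction of -6.80 with SD high. The poly-A spike-ins, which hold no rat transcript, had an interaction of 1.45 between pools, larger than the 1.5-fold limit for genes.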

How the results depend on the processing

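With a limit of at least 2-fold, 170 genes were called (110 positive, 60 negative), 1 pool stood apart for 120 (PCK 51, FHH.Pkhd1 23, FHH 2), 2 genes were called in opposite directions, and 54 listed genes were called. With no fold limit the calls were 3345 (1526 positive, 1819 negative), 538 in opposite directions and 343 listed. When the other 3 pools had to lie within 1.5-fold, FHH.Pkhd1 stood apart for 31. Leaving out each array in turn gave 532 to 567 calls (302 to 329 positive, 211 to 255 negative), 215 to 230 genes with 1 pool apart and 13 to 16 opposite. Quantile normalization gave 552 calls, the mean of probe sets 481 (446 of them shared), and no filter on low values 621. The interactions of the named genes kept their sign in the alternatives run. The median over all genes went from -0.01 to 0.01 with quantile normalization and with no filter, and without a fold limit negative calls outnumbered positive ones. With the replicate number as a replicate block there were 547 calls, the same 547 genes. Deviations of arrays with the same number correlated at a median of -0.02 (-0.33 to 0.34, 18 pairs), so the numbers do not pair the arrays. Signal over background limits genes near the detection level: 106 called genes lay below it in at least 1 pool.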
